A study of Macaca mulatta with 161 samples.

Results

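Apolipoproteins, MTTP and transthyretin are secreted or secretory-pathway proteins that are best known from the liver, the intestine and the yolk sac. The genes described were named by symbol as APOA1, APOA2, APOA4, APOB, APOC3, APOE, MTTP and TTR. Of these 8 genes, 7 have a row among the 16049 gene symbols of the table. APOA4 has no row and was not analysed here. Their levels were followed over the 4 stages and against SOX17, an endoderm transcription factor, in 161 single cells.

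The cells are inner cells of rhesus monkey (Macaca mulatta) blastocysts, 1 RNA sequencing library per cell. All embryos came from oocytes of females stimulated with recombinant FSH and chorionic gonadotropin, and were grown in HECM-9 medium with 10% FBS. Outer cells were marked with the membrane dye PKH26, and unlabelled cells were taken as inner cells, so that the sort was by position and not by a marker gene. The groups are early blastocysts with a small cavity (about embryonic day 5, 44 cells), middle blastocysts (about day 5.5, 39 cells), late blastocysts with a fully expanded cavity (about day 6, 52 cells) and hatching blastocysts, described in the culture protocol as hatched (about day 7, 26 cells). The labels give no genotype or treatment that differs between them, and no strain or age of the animals is given. Of the middle and late cells, 7 have titles beginning with HS, which the labels do not explain, and they were kept with their stage. Without them APOA1 differed by 2.99 between late and middle cells, against 2.77 with them. From which embryo or animal a cell came is not given. Each stage is therefore 1 sample, cells are not replicates, and all differences below are descriptions with no test.

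By the end of the blastocyst stage, inner cells are of 2 kinds. The epiblast, marked by NANOG, gives rise to the embryo proper, and the primitive endoderm, marked by SOX17 and GATA4, gives rise to yolk sac endoderm. The yolk sac of mammals makes many plasma proteins before the liver does. In such secretory cells, MTTP loads lipid onto APOB inside the endoplasmic reticulum to start a lipoprotein particle. APOA1 and APOA2 are the main proteins of high-density lipoprotein. APOC3 rides on triglyceride-rich particles and slows their clearance, and APOE is a ligand of lipoprotein receptors on the cell surface. TTR carries thyroid hormone and, in a complex with the retinol-binding protein RBP4, retinol.

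Levels are FPKM, in which fragments are counted per kilobase of transcript and scaled to the depth of the cell. They are averaged over cells as log2(FPKM + 1), with the SD between cells, and a difference is between such means. A gene counts as detected in a cell at an FPKM of 1 or more. Recovered reads numbered 2.97 to 18.9 M (mega) per cell, with stage medians of 10.5 to 12.1 M. At these depths 1 read was worth a median of 0.0954 FPKM for APOA1, 0.0205 for MTTP and 0.00596 for APOB, and it was worth most for APOC3 (median 0.158, up to 0.595) and APOA2 (median 0.178, up to 0.670). In the shallowest cell an FPKM of 1 was therefore under 2 reads for these 2 genes. The intervals on shares of cells are exact Clopper-Pearson 95% intervals, which cover the counting error of cells only.

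Cells were also split by SOX17, which is a range of 1 gene and not a cell type. SOX17 was below an FPKM of 1 in 108 cells, from 1 to below 10 in 13 and at 10 or more in 40. In all, 9 cells lay near the lower boundary, at 0.5 to 2. The late and hatching stages hold 24 and 7 cells at 10 or more, and the early and middle stages hold 3 and 6. All 7 hatching cells at 10 or more have title numbers from 1 to 18, and 5 other hatching cells share this range of numbers.

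The marker lists split with SOX17 in the later stages. In late and in hatching cells, all 12 primitive endoderm markers (SOX17 among them) were higher by at least 1 log2 unit in cells with SOX17 at 1 or more, and all 10 epiblast markers were lower. In hatching cells with SOX17 at 10 or more, the summed FPKM of the 11 other endoderm markers was 2598 to 6434 and that of the epiblast markers 40.1 to 160. In hatching cells with SOX17 below 1, these sums were 19.5 to 133 and 5607 to 8248. In the early and middle stages, SOX17 at 10 or more did not come with this marker pattern. There the epiblast markers summed to 2423 to 3282 in the 3 early cells and 1350 to 2742 in the 6 middle cells, and the endoderm markers to 33.4 to 141 and 11.8 to 159. Trophectoderm markers, of the outer layer, summed to 372 to 4016 in late and 580 to 3290 in hatching cells with SOX17 at 10 or more, against 932 to 4974 and 579 to 5149 in cells below 1. In none of these 4 groups with SOX17 at 10 or more was a marker of the 3 lists at 0 in all cells. By gene, 8 trophectoderm markers had a mean FPKM of at least 1 over all cells. In late cells with SOX17 at 1 or more, CDX2 and GATA3 were higher by at least 1 log2 unit and KRT7 lower. In hatching cells CDX2, GATA3 and CLDN4 were higher and KRT7 lower. Among all genes, 8.16% were higher and 7.81% lower in late cells, and 11.7% and 29.9% in hatching cells. A single late cell, L13 (SOX17 at 1.74), stands apart with 2.97 M reads, the fewest of all cells, and a trophectoderm sum of 22562. The hatching cells H2 and H4, with SOX17 at 1.93 and 2.39, had epiblast sums of 8544 and 6792. The part of other cell types in the results was not tested.

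APOE was the most evenly present of the 7 genes. All 161 cells had it at 1 or more, with median levels of 278 FPKM in early, 510 in middle, 890 in late and 926 in hatching cells. The lowest cell was at 11.3 FPKM in the early stage and at 137 in the hatching stage, and the highest at 1175 and 4435. All stages overlapped. Mean log2 levels were 8.04 (SD 1.39), 8.78 (SD 1.22), 9.74 (SD 0.95) and 10.08 (SD 1.33), and no step between neighbouring stages reached 1 log2 unit.

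APOA1 spread far more widely within each stage. Its lowest, median and highest levels were 0.0708, 40.4 and 1008 FPKM in early cells, and 0, 44.9 and 1203 in middle cells. In late cells they were 0, 487 and 13365, and in hatching cells 0, 39.2 and 80876. The top of the range climbed with stage while the hatching median stayed at the early level. Mean log2 levels in stage order were 4.82 (SD 2.74), 5.28 (SD 2.84), 8.04 (SD 4.10) and 7.06 (SD 5.47). APOA1 was detected in 37 of 44 early cells (84.1%, interval 69.9% to 93.4%), 35 of 39 middle, 50 of 52 late and 21 of 26 hatching cells (80.8%, 60.6% to 93.4%). The wide SD in the later stages goes with separate groups of cells, as the split by SOX17 shows further on.

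MTTP and TTR stayed below the detection level in the earlier stages. MTTP reached no more than 0.268 FPKM in any of 44 early cells and 0.423 in any of 39 middle cells, and 0 detected cells allow shares of up to 8.04% and 9.03%. It was detected in 18 of 52 late cells (34.6%, 21.97% to 49.1%), up to 63.9 FPKM, and in 8 of 26 hatching cells (30.8%, 14.3% to 51.8%), up to 171. The lipid loader of APOB was thus found in a minority of late and hatching cells. TTR followed at a later stage. It was at most 0.748 FPKM through the middle stage, was detected in 2 of 52 late cells (3.85%, 0.469% to 13.2%) and in 7 of 26 hatching cells (26.9%, 11.6% to 47.8%), where it reached 1501.

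APOC3 was detected in a minority of cells at every stage. It was found in 9 of 44 early cells (20.5%, 9.80% to 35.3%), 8 of 39 middle cells (20.5%, 9.30% to 36.5%), 4 of 52 late cells (7.69%, 2.14% to 18.5%) and 1 of 26 hatching cells (3.85%, 0.0973% to 19.6%). The highest level per stage was 128, 46.1, 102 and 100 FPKM. All 9 early and 6 of the 8 middle cells with APOC3 had SOX17 below 1, as did 38 of 44 early and 29 of 39 middle cells in all. The 4 late and 1 hatching cells with APOC3 had SOX17 at 1 or more, as did 28 of 52 and 9 of 26. The intervals of all 4 stages overlap. APOC3 lies beside APOA1 in the RefSeq gene order of the rhesus genome, yet over 161 cells their levels had r = 0.10 (rho 0.05), a description over cells that differ in stage and depth.

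APOA2 and APOB were close to absent. APOA2 was detected in 0 of 44 early cells (up to 8.04% allowed) and in 1 cell of each later stage, at 25.99 FPKM (M21, 176 reads), 7.30 (L6) and 119 (H8, 590 reads). APOB, the structural protein that MTTP loads, was detected in 0 of 135 cells before hatching, where its highest level was 0.0893 FPKM. The upper limits on its share are 8.04%, 9.03% and 6.85% of early, middle and late cells. It was detected in 2 hatching cells, H8 at 9.10 FPKM (1340 reads) and H5 at 2.39 (332 reads). Both low genes thus rest on single cells.

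**Figure D1:**
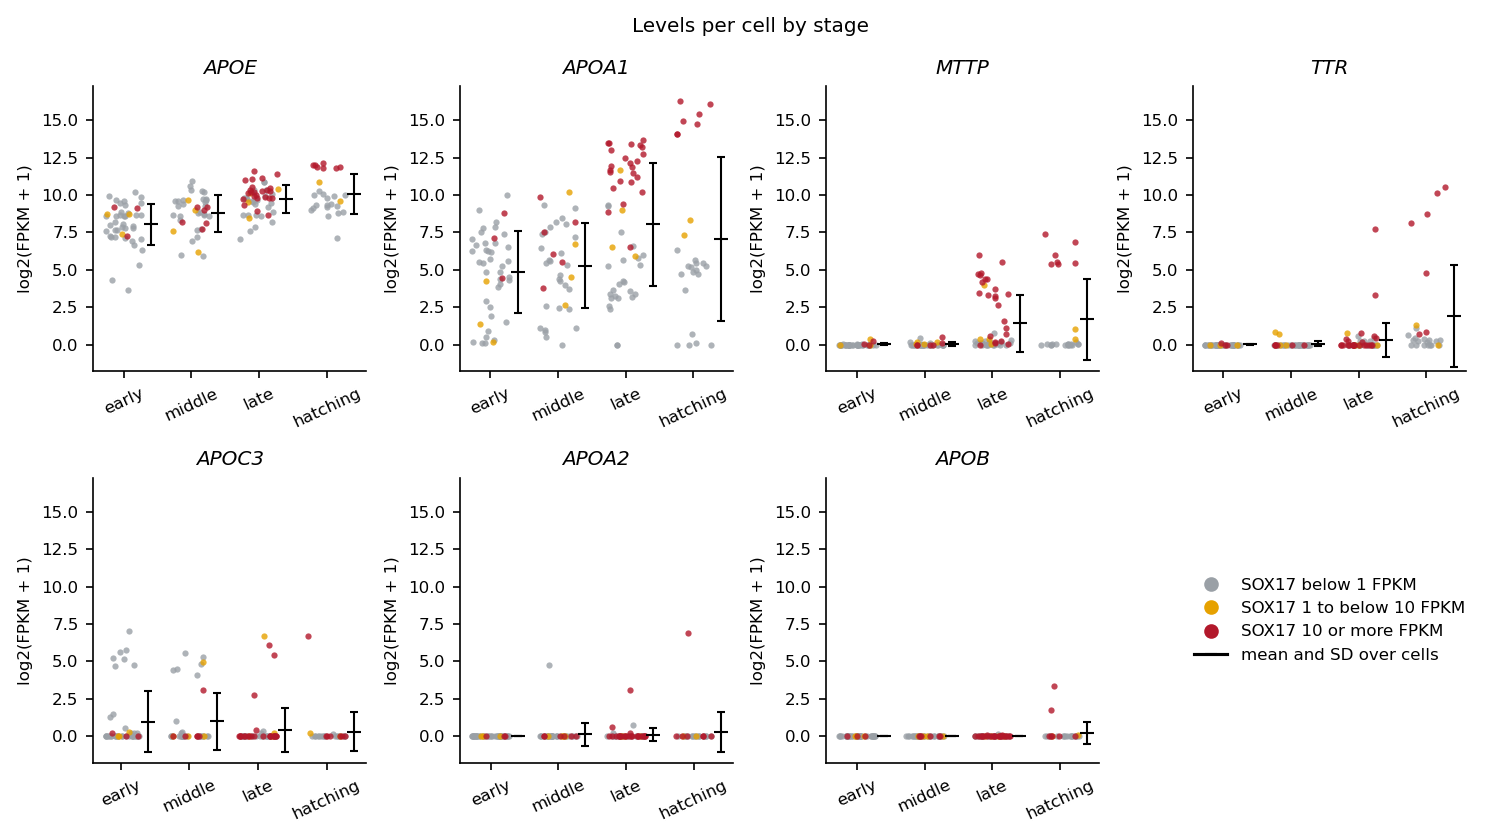
Level of each of the 7 genes per cell, as log2(FPKM + 1), at the early (44 cells), middle (39), late (52) and hatching (26) stage; points are cells coloured by their SOX17 range, and the bars give the mean and SD over cells. APOE is present in every cell, APOA1 and MTTP divide by SOX17 in late and hatching cells, and TTR is high in a few hatching cells.

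Between the first and the last stage, 4 of the 7 genes were higher by at least 1 log2 unit in hatching cells, where 11.3% of the 9781 genes with a mean FPKM of at least 1 were higher by as much. APOA1 was higher by 2.24, APOE by 2.04, TTR by 1.89 and MTTP by 1.67, while APOC3 differed by -0.70. The median of the 7 genes was 1.67 and that of all genes -0.12. With the hatching cells numbered 1 to 18 alone the median of the 7 genes was 2.74. That range of numbers holds all 7 hatching cells with SOX17 at 10 or more, so its makeup by SOX17 differs from that of the whole stage. The count of 4 is over all 7 genes, of which APOA2 and APOB did not pass the filter on mean FPKM. MTTP and TTR, at most 0.423 and 0.748 FPKM in early and middle cells, passed the filter only through late and hatching cells. The APOA2 and APOB differences of 0.27 and 0.20 fell to 0.00 and 0.07 without the cell H8. These are differences of means. By the median over cells APOA1 differed by -0.040, MTTP by 0.04 and TTR by 0.31, so that APOE, at 1.73, alone passed 1 unit, and the median of the 7 genes was 0. With a pseudocount of 10 MTTP differed by 0.79.

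The steps between neighbouring stages were uneven. No member differed by 1 log2 unit between early and middle cells, where 3.06% of genes were higher and 3.61% lower by that much. From middle to late cells APOA1 was higher by 2.77 and MTTP by 1.37, which makes 2 of 7 genes against 3.95% of all genes. MTTP differed by 0.23 by the median over cells and by 0.46 with a pseudocount of 10, below 1 unit. None was lower by 1 unit, as 5.82% of all genes were, APOE differed by 0.95 and APOC3 by -0.55. The median of the 7 genes was 0.27 in this step (0.13 without L27) and that of all genes -0.05. From late to hatching cells TTR alone was higher by at least 1 unit, at 1.58, against 7.26% of all genes, and none was lower by 1 unit, against 9.87%. APOA1 differed by -0.98. Late cells hold a larger share with SOX17 at 1 or more than hatching cells do, 28 of 52 against 9 of 26, and the part of this makeup in the stage differences was not tested.

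In late cells, APOA1 and MTTP separated with SOX17. Of the 7 genes, 2 were higher by at least 1 log2 unit in the 28 cells with SOX17 at 1 or more than in the 24 below, where 8.16% of all genes were higher and 7.81% lower by as much. APOA1 differed by 6.83 (the largest change on leaving out any 1 cell was to 7.05) and MTTP by 2.42. With a pseudocount of 10 the MTTP difference was 0.84, below 1 unit, and with 0.1 it was 4.30. APOE differed by 0.83, APOC3 by 0.75 and TTR by 0.44. The APOC3 value was 0.53 without L13, and the TTR value was 0.18 without L27. The median of the 7 genes was 0.75 and that of all genes -0.01.

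The late cells at the ends of the SOX17 range show the separation by level. In the 24 cells with SOX17 at 10 or more, APOA1 was 89.4 FPKM at the lowest, 3833 at the median and 13365 at the highest. In the 24 cells below 1, it was 0, 13.4 and 652. The groups overlapped in 6 cells, with L41 at 652, L59 at 609, L56 at 187 and L49 at 93.6 in the lower group and L61 at 89.4 and L6 at 463 in the upper. L61 had SOX17 at 62.7 together with NANOG, the epiblast factor, at 1005 FPKM. MTTP was detected in 17 of 24 cells with SOX17 at 10 or more (70.8%, 48.9% to 87.4%), with a median of 8.72 FPKM, and in 0 of 24 below 1, where the highest was 0.697. For 0 of 24 cells the upper limit is 14.2%. In the other 7 cells with SOX17 at 10 or more, MTTP was at most 0.659 FPKM. APOE was 405, 1161 and 3103 FPKM in the upper and 131, 734 and 1910 in the lower group, with wide overlap.

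In hatching cells the separation was wider and took in TTR and APOE. Here 4 of the 7 genes were higher by at least 1 log2 unit in the 9 cells with SOX17 at 1 or more, where 11.7% of all genes were higher and 29.9% lower. APOA1 differed by 9.83, MTTP by 4.80, TTR by 4.78 and APOE by 2.25. The median of the 7 genes was 2.25 and that of all genes -0.41. The differences of APOA2 at 0.77, APOC3 at 0.76 and APOB at 0.57 became 0, 0.02 and 0.23 without H8.

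The 7 hatching cells with SOX17 at 10 or more were most alike in APOE and least alike in TTR. The SD of log2 levels was 0.11 for APOE, 0.82 for MTTP, 0.88 for APOA1 and 4.19 for TTR. APOE lay between 3561 and 4435 FPKM in these cells, and between 137 and 1250 in the 17 cells with SOX17 below 1. MTTP lay between 41.1 and 171 FPKM, against at most 0.136 in those 17 cells. In H2 and H4, with SOX17 at 1.93 and 2.39, MTTP was at 0.296 and 1.02. In the same order of groups, the 7 cells and then the 17, APOA1 is given next. APOA1 was 17514 FPKM at the lowest, 31922 at the median and 80876 at the highest, against 0, 28.1 and 80.1. TTR ranged over more than 3 orders of magnitude among the same 7 cells. It was 0.618 FPKM in H18, 0.813 in H13, 26.6 in H1, 278 in H5, 417 in H8, 1117 in H10 and 1501 in H11. TTR did not follow APOA1: H11 and H10, with the highest TTR, had the lowest APOA1 of the 7, at 17514 and 17595, and H18 with the lowest TTR had the highest APOA1. In the 17 cells with SOX17 below 1, TTR reached 1.13 FPKM.

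Reads were fewer in the hatching cells with high SOX17, with a median of 9.09 M against 12.95 M below 1. APOA1 alone took 3.38% to 13.8% of the summed FPKM of each of the 7 cells, with a median of 6.26%, against a median of 0.654% in late cells with SOX17 at 10 or more. FPKM is relative to the whole cell, and with the members left out of the scaling the differences by SOX17 in hatching cells were 10.04 for APOA1, 5.00 for MTTP, 4.95 for TTR and 2.46 for APOE. Within the hatching cells numbered 1 to 18, the 7 with SOX17 at 10 or more exceeded the 5 others by 8.56 for APOA1, 5.90 for TTR, 5.68 for MTTP and 2.77 for APOE, where 18.5% of all genes were higher and 31.5% lower by 1 unit. This comparison was added after seeing the data. Over all hatching cells, those with SOX17 at 10 or more exceeded those below 1 by 11.44 for APOA1, 6.03 for TTR, 5.98 for MTTP and 2.63 for APOE. With the boundary at 1, the cells numbered 1 to 18 gave 7.81 for APOA1 and 3.10 for APOE. The lower side of that split was H6, H16 and H17 only, with APOE at 137, 682 and 456 FPKM. In the split of the same cells at 10, the APOE difference was 2.25 without H6.

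**Figure D2:**
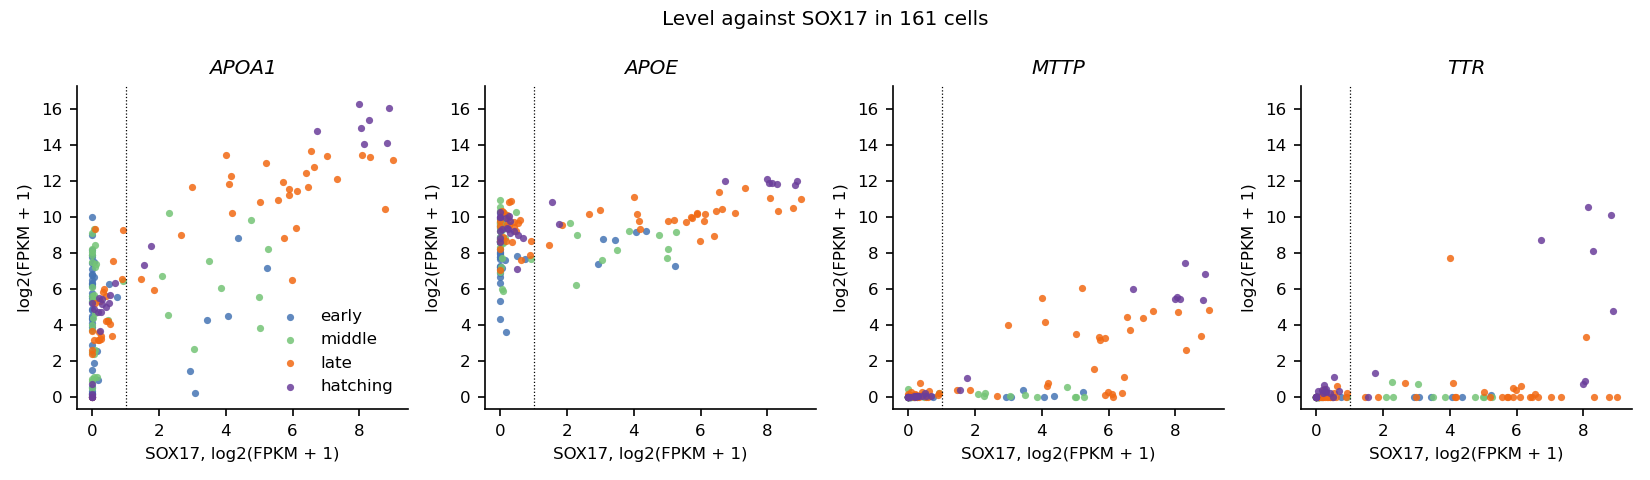
Levels of APOA1, APOE, MTTP and TTR against SOX17, both as log2(FPKM + 1), in 161 cells coloured by stage; the dotted line marks a SOX17 FPKM of 1. Late and hatching cells climb in APOA1 and MTTP to the right of the line, whereas early and middle cells with SOX17 stay low in MTTP and TTR.

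Across cells within a stage, the relation of each gene to SOX17 differed by stage, given as a description since cells may share embryos and differ in depth. In 52 late cells Pearson's r with SOX17 was 0.85 for APOA1 (Spearman's rho 0.87), 0.69 for MTTP (rho 0.69), 0.51 for APOE (rho 0.51) and 0.13 for TTR (rho 0.17). In 26 hatching cells r was 0.93 for APOA1 (rho 0.91), 0.98 for MTTP (rho 0.96), 0.86 for APOE (rho 0.55) and 0.79 for TTR (rho 0.81). Within the 28 late cells with SOX17 at 1 or more r was 0.55 for APOA1, 0.48 for APOE, 0.34 for MTTP and -0.09 for TTR, and within the 24 below 1 it was 0.59, -0.18, 0.21 and 0.35. Within the 7 hatching cells at 10 or more it was 0.10 for APOA1, -0.32 for APOE, 0.16 for MTTP and -0.02 for TTR. In 44 early cells r was 0.01 for APOA1, 0.09 for APOE, 0.59 for MTTP and 0.53 for TTR, and in 39 middle cells 0.25, -0.16, 0.29 and 0.22. MTTP and TTR were below detection in all these early and middle cells.

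The cells with SOX17 at 10 or more were also followed through the stages. APOA1 had medians of 141 FPKM (21.1 to 453) in 3 early, 126 (12.9 to 920) in 6 middle, 3833 in 24 late and 31922 in 7 hatching cells. MTTP was at most 0.191 and 0.423 FPKM in the early and middle cells, and had medians of 8.72 in late and 45.1 in hatching cells. TTR was detected in 0, 0, 2 and 5 of these cells. APOE, present from the start, had medians of 574, 402, 1161 and 3817 FPKM. In the middle stage, SOX17 at 1 or more went with an APOA1 difference of 1.66, an MTTP difference of 0.08 and an APOE difference of -0.52, where 2.17% of all genes were higher and 3.02% lower by 1 unit. In the early stage APOA1 differed by -0.52 (-1.41 to 0.32 on leaving out 1 cell) and APOC3 by -1.02 (-0.86 without E45), where 5.11% of all genes were higher and 2.95% lower.

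Among cells with SOX17 at 10 or more, late exceeded middle cells by 4.85 for APOA1, 2.65 for MTTP and 1.61 for APOE, which is 3 of 7 genes against 8.16% of all genes, and none was lower, against 11.5%. Hatching exceeded late cells by 3.42 for APOA1, 3.25 for MTTP, 5.70 for TTR and 1.73 for APOE, 4 of 7 genes against 11.4%, and none was lower by 1 unit, against 30.2%. The highest of the 24 late cells was at 13365 FPKM for APOA1 and 3103 for APOE. The lowest of the 7 hatching cells was at 17514 and 3561. The share of all genes separated in this way was not counted. The cells with SOX17 below 1 behaved otherwise. There, no member differed by 1 unit between late and hatching cells, where 9.05% of genes were higher and 7.28% lower, and between middle and late cells only APOC3 did, at -1.02, where 6.53% were higher and 9.43% lower. That value was -0.86 without M8. Between early and middle cells with SOX17 below 1 no member did, where 3.85% were higher and 3.31% lower, and APOE differed by 0.94.

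**Figure D3:**
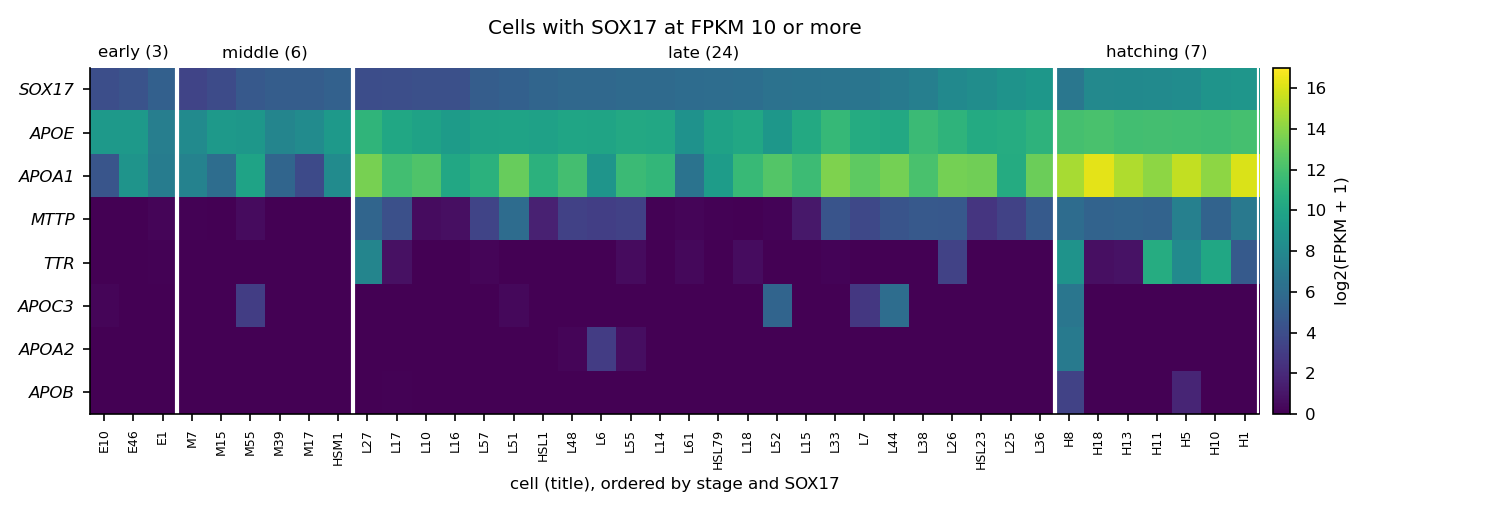
Level of SOX17 and the 7 genes, as log2(FPKM + 1) in colour, in each of the 40 cells with SOX17 at an FPKM of 10 or more (columns), ordered by stage and then by SOX17. MTTP is dark in the 9 early and middle cells and bright in all 7 hatching cells, TTR varies from cell to cell, and H8 alone shows all 7 genes.

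The balance of the 2 abundant apolipoproteins differed by stage. On FPKM, which is per length, APOE exceeded APOA1 in 41 of 44 early and 36 of 39 middle cells. APOA1 exceeded APOE in 22 of 52 late cells, among them 20 of the 24 with SOX17 at 10 or more, and in 7 of 26 hatching cells, which are the 7 with SOX17 at 10 or more.

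MTTP was found largely without its main partner. Of the 18 late cells with MTTP detected, none had APOB at an FPKM of 1, and 15 had no APOB read at all. Of the 8 hatching cells with MTTP, 2 had APOB detected and 5 had it at 0. MTTP was detected only in cells with SOX17 detected, 18 of 18 in late and 8 of 8 in hatching cells. H8 was the only cell of 161 with all 7 genes detected, with APOC3 at 100 FPKM (559 reads) beside APOA2 and APOB.

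In hatching cells with SOX17 at 10 or more, of which 5 had TTR detected, TTR was likewise found without RBP4. RBP4 in each of the other cells with TTR is not given here. RBP4 was detected in 0 of the 7 hatching cells with SOX17 at 10 or more, which allows up to 40.96%, and in 3 of the 17 below 1. STRA6, the cell surface receptor for RBP4 that takes up retinol, differed by -1.70 in late and -3.13 in hatching cells between SOX17 at 1 or more and below. Only STRA6 and CRABP2 of this list of 6 genes with a row passed the filter, and CRABP2 differed by less than 1 unit in both.

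The other genes of lipid carriage were taken as lists, whose members were not picked by how they moved, although earlier results of these data were known. Their counts past 1 log2 unit by SOX17 stand beside 8.16% higher and 7.81% lower among all genes in late cells, and 11.7% and 29.9% in hatching cells. The filter uses the mean FPKM over all cells, so a gene can pass it through the cells with high SOX17 alone. Of the other apolipoproteins, 3 of 7 passed the filter. APOM, a carrier of sphingosine 1-phosphate on high-density lipoprotein, was higher by 4.04 in hatching cells with SOX17 at 1 or more, and APOC1 by 2.17, whereas in late cells neither differed by 1 unit. CLU differed by less than 1 unit in both stages. Medians for this list were 0.49 in late and 2.17 in hatching cells, beside -0.01 and -0.41 over all genes.

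For lipoprotein assembly and export, 12 of 14 genes passed. In late cells 4 were higher and none lower (8.16% and 7.81% of all genes), and in hatching cells 6 were higher and 1 lower (11.7% and 29.9%). DGAT2, which makes triglyceride, was higher by 2.39 and 3.61, and PLTP, a phospholipid transfer protein, by 1.83 and 4.28. SEC24D, a coat component of vesicles leaving the endoplasmic reticulum, was higher by 1.47 in hatching cells, and KLHL12, a ubiquitin ligase adaptor for large vesicles, differed by -2.59. The list medians were 0.32 and 0.93. DGAT2 was also detected in 41 of 44 early cells, at a median of 52.6 FPKM.

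Of the receptors and uptake genes, 9 of 14 passed. In late cells 2 were higher and 1 lower (8.16% and 7.81% of all genes), and in hatching cells 3 were higher and 1 lower (11.7% and 29.9%). LRP2, the endocytic receptor megalin, differed by 4.68 in hatching cells and was at 29.4 to 114 FPKM in the 7 cells with SOX17 at 10 or more, against at most 0.0956 below 1. LRPAP1, a chaperone of endocytic receptors, differed by 1.98 and 1.24, and SORL1 by 1.55 in hatching cells. Of the efflux genes, 4 of 7 passed. LIPG was higher in both stages, LCAT, which esterifies cholesterol on high-density lipoprotein with APOA1 as cofactor, was higher by 1.30 in hatching cells, ABCG1 differed by -1.70, and ABCA1, the exporter that lipidates APOA1, differed by less than 1 unit.

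Of the 16 genes listed as secreted plasma proteins, 4 passed the filter, of which VTN and F2 are plasma proteins, while SERPINH1 resides in the endoplasmic reticulum and FABP1 in the cytosol. In hatching cells with SOX17 at 1 or more, VTN (vitronectin) was higher by 6.53, F2 (prothrombin) by 5.21, SERPINH1 (a collagen chaperone) by 2.63 and FABP1 (liver fatty acid-binding protein) by 2.04. In late cells SERPINH1 alone was higher by 1 unit, at 4.97. VTN was at 89.1 to 1154 FPKM and F2 at 50.1 to 178 in the 7 hatching cells with SOX17 at 10 or more. Those cells enter the mean used by the filter, so that the genes passing it were higher there is partly fixed by the filter. Genes that did not pass are not in these counts. AFP, alpha-fetoprotein, was detected in 1 of these 7 cells, at 20.1 FPKM, and ALB, albumin, was at 0 in all 26 hatching cells.

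Among transcription factors of lipoprotein genes, 10 of 17 passed. In late cells 4 were higher and 2 lower (8.16% and 7.81% of all genes), and in hatching cells 5 were higher and 3 lower, the latter near the 29.9% of all genes (11.7% higher). HNF4A, a nuclear receptor that binds apolipoprotein and MTTP promoters in liver, was higher by 2.36 in late and 4.84 in hatching cells. It was already detected in all 44 early cells at a mean log2 level of 5.84 (SD 1.02). In cells with SOX17 below 1 its mean was 5.83 in early, 5.17 in middle, 3.81 in late and 0.50 in hatching cells. In cells with SOX17 at 10 or more it was 5.98, 5.83, 6.26 and 6.51. Early and middle cells thus had HNF4A with MTTP below detection. FOXA2 differed by 1.30 and 3.12 and is also on the endoderm marker list. CREB3L3, a membrane-bound factor of lipid genes, differed by 3.91 in hatching cells and by less than 1 unit in late cells.

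**Figure D4:**
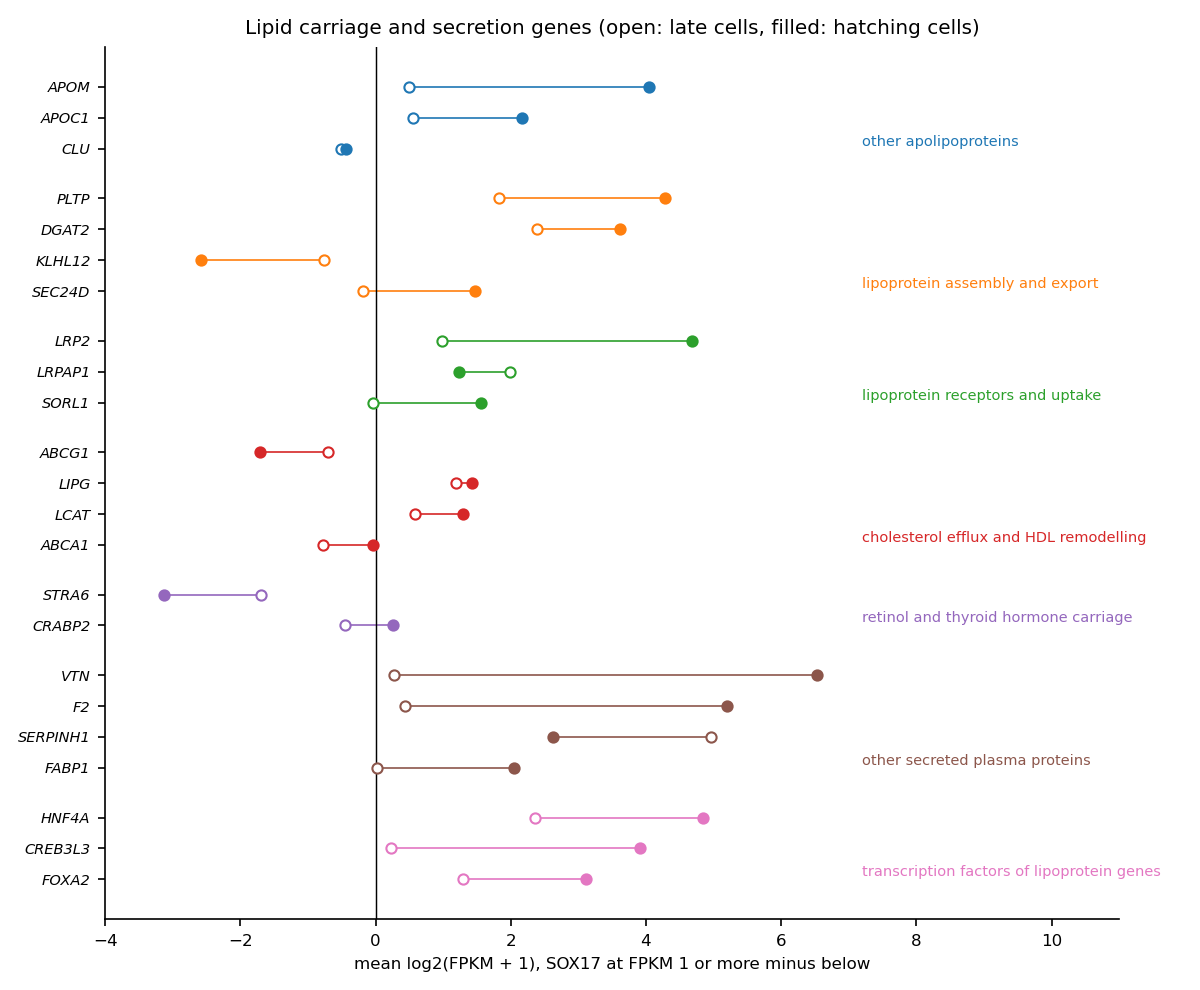
Difference in mean log2(FPKM + 1) between cells with SOX17 at an FPKM of 1 or more and cells below 1, for genes from the 7 lists, in late cells (open points, 28 against 24 cells) and hatching cells (filled points, 9 against 17 cells). VTN, F2, LRP2, APOM and CREB3L3 lie near 0 or below 1 in late cells and above 3 in hatching cells.

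The genes most like the 7 in pattern were sought over the 78 late and hatching cells, by Pearson's r with the mean z score of the members among 9855 genes. This mean weighs all 7 members alike. Of the hatching cells, H8 alone had APOA2 and APOC3 detected, and only H8 and H5 had APOB. H8 therefore weighs heavily in the mean. Among the 6 highest, FLRT3 had r = 0.77, TFPI 0.75, PTK2B 0.75, BMP2 0.74 and ANG 0.73, while SOX17 ranked 35 with 0.68, or 4 with 0.75 by Spearman's rho. TFPI encodes a secreted inhibitor of coagulation and BMP2 a signalling ligand. These ranks move with the choice of cells and of measure: by Spearman's rho 1 of the 6 remained, over late cells alone 0 of the 6 remained, and over hatching cells alone 1 did. For single members the closest genes were NID2 for APOA1 (0.94), AKR1B10 for MTTP (0.83), IHH for TTR (0.87), FLRT3 for APOE (0.72), CCKBR for APOB (0.81), MYL4 for APOC3 (0.66) and FAM159A for APOA2 (0.66). The last 3 rest on a few cells with reads.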

How the data were processed

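Single-cell FPKM values were deposited by the authors as 1 table of 16049 gene symbols and 161 cells, and all columns matched a cell title. Tools named in the submitters' processing notes are TopHat2 2.1.0, FastQC, DESeq2 and HTSeq, whose order and use are not stated. The build is not given in the sources used here, nor is the annotation, so no coordinates or sequences are printed. Amplification was by PCR, and reads were paired and 150 bp long, per the labels' protocols, which mention no molecular identifiers.

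The worth of 1 read was found from the steps between low values, for 13836 of 13857 genes seen in 2 cells or more (relative tolerance 2e-06, absolute tolerance 1e-05). Since these genes carry between 83.1% and 93.2% of the FPKM total per cell, read totals are lower bounds. No count test was run, since each stage is 1 sample.

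Groups follow the stage labels. Means of log2(FPKM + 1), with a pseudocount of 1 that understates differences of low genes, were compared as descriptions, without p-values. The background is the share past 1 log2 unit among the 9781 genes (5 of the 7 members) whose mean FPKM reached 1. Counts of members run over all 7 genes in every comparison, whether or not they passed this filter. The members, lists, markers and SOX17 ranges were chosen with earlier results of these data known. Of 91 genes in the 7 lists, 81 have a row. Named list genes are up to 4 per list with the largest difference by SOX17 in late or hatching cells, and the most alike genes are the 6 highest in r; some of these are not reported here. RBP4, AFP, ALB and NANOG values, and the single cells named, were chosen after seeing their values. No doublet caller was run on these singly picked cells.

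Python 3.11.15, numpy 2.4.6, pandas 2.3.3, scipy 1.17.1 and matplotlib 3.10.9 were used. The scripts were tested on simulated cells. Alternatives were other pseudocounts, scalings, filters, SOX17 boundaries, the median over cells, and leaving out single cells. Leaving out H8 or L27, comparing stages within a SOX17 range and splitting the hatching cells numbered 1 to 18 at an FPKM of 10 were chosen after seeing the data.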

Additional observations from a re-analysis of the deposited data

How the results depend on the processing

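The median of the 7 genes was 0 by the median over cells in every comparison but that by SOX17 in hatching cells. Over its alternatives it ranged from 0 to 2.74 for hatching minus early, 0 to 0.66 for late minus middle, 0 to 0.83 for SOX17 in late cells and 2.20 to 3.10 for SOX17 in hatching cells. Of the differences past 1 log2 unit, 1 changed sign: APOA1 for hatching minus early was -0.040 by the median over cells, against 2.24 by the mean. Small differences of APOA2 (late minus middle) and APOB (by SOX17 in late cells), all under 0.1, also changed sign under some settings. The cause was not tested. The MTTP difference by SOX17 in hatching cells ran from 2.27 to 7.62 over pseudocounts of 10 and 0.1. With detection at any value above 0, the share of late cells with MTTP was 80.8% and that of hatching cells with TTR 69.2%. Detection of APOA2 and APOC3 is the most limited by depth, 1 sample per stage limits every comparison, and the number of embryos is not known. No paired analysis was possible because the labels name no embryo and title numbers only name cells.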
